A study of Mus musculus with 2 samples.

Results

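Metallothioneins and the zinc transporters placed in the exocrine pancreas were followed as a set of 8 genes in polyadenylated RNA from mouse pancreas. The metallothioneins Mt1 and Mt2, the zinc sensor Mtf1, the exporters Slc30a1 and Slc30a2, and the importers Slc39a5, Slc39a7 and Slc39a14 were chosen by name, under a rule that uses no measured value. Earlier results of these data were known when the choice was made. All 8 were found among the 43346 gene rows of both libraries through the GENCODE M21 annotation of GRCm38. The tissue came from 1 adult female C57BL/6J mouse, 10 weeks old, the common inbred laboratory strain, with no treatment, allele or agent given in the labels. Replicate 2 and replicate 1 are technical libraries of the same biological sample, and replicate 2 was made in May 2015. With 1 animal and 1 group, no condition could be compared, and every SD below is technical.

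Zinc enters the cytosol through the Slc39 (ZIP) importers, from outside the cell or from organelles, and leaves it through the Slc30 (ZnT) exporters, into vesicles or out of the cell. Metallothioneins are small cysteine-rich proteins that hold zinc and copper in the cytosol. The transcription factor MTF1 senses free zinc and binds metal response elements in the promoters of the metallothionein genes and of Slc30a1. Acinar cells of the exocrine pancreas secrete zinc with their digestive enzymes, and the carboxypeptidases among these enzymes are zinc enzymes. Beta cells of the islets store zinc with insulin.

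The coding sequences of Mt1 and Mt2, the most abundant members, are shown because their cysteine codons (in capitals) are what makes the proteins metal binding, and because they show how far reads of the neighbouring genes can be told apart. Both were read from the GENCODE M21 transcripts, on the plus strand of chromosome 8.
Mt1: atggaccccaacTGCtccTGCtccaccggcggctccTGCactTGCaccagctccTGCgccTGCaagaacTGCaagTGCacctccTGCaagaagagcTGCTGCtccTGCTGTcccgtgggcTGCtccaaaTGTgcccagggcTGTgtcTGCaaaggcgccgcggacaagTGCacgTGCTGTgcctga
Mt2: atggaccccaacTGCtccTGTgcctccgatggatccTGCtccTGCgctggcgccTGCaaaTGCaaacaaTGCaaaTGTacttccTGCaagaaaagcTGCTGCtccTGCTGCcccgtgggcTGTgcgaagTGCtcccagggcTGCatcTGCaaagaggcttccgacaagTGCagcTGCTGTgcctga
Each sequence has 186 bases and 61 codons before the stop, of which 20 are cysteine codons (32.8%). All 20 cysteine codons lie at the same positions in both genes. The sequences were identical at 148 of 186 bases (79.6%), and 46 of the 61 codons encode the same residue. The longest run shared by the 2 mRNAs was 20 bases, and the deposited posterior SD of the count was 0 for both genes in both libraries.

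The 4 metallothionein genes of the mouse lie side by side on the plus strand of chromosome 8 in the order Mt4, Mt3, Mt2 and Mt1, within 43131 bases of GRCm38. Mt4 ends 13575 bases before Mt3, Mt3 ends 18517 bases before Mt2, and Mt2 ends 5513 bases before Mt1.

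The library totals were 9797569 expected counts in replicate 2 and 9441559 in replicate 1. The libraries differed in what took these counts: genes of the mitochondrial genome held 3.17% in replicate 2 and 17.6% in replicate 1, and the noncoding RNA Gm42418 held 42.8% in replicate 2 and 16.9% in replicate 1. TMM scaling, which sets the middle of all genes level, shifted the log2 ratios up by 0.54 from those by library totals. Totals without the mitochondrial genes with their nuclear copies and Gm42418, Lars2 and Gm26917 shifted them by 0.37. All 6 acinar marker genes were detected, and together they held 50601 TPM in replicate 2 and 48504 TPM in replicate 1. Single markers differed more than this sum: the elastase gene Cela1 stood at 22625 TPM in replicate 2 and 12187 TPM in replicate 1, and the alpha cell hormone gene Gcg at 1566 TPM in replicate 2 and 4235 TPM in replicate 1. Their part in the results below was not tested. The 4 hepatocyte markers summed to 95.98 TPM in replicate 2 and 114.2 TPM in replicate 1. Nearly all of this was Ttr, also on the alpha cell list, at 95.27 TPM in replicate 2 and 113.3 TPM in replicate 1, while albumin (Alb) had 8 counts in replicate 2 and 10 in replicate 1. In this bulk tissue the cell type that made a transcript was not resolved. For a low level of a transcript, few cells of a type and little RNA per cell cannot be told apart.

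Levels are the deposited TPM, a measure corrected for effective length and scaled to the same total in every library, so they can be compared between genes. Brackets give 95% exact Poisson intervals of the count carried to TPM. They cover counting error only, since PCR copies among the reads are not separate molecules.

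Mt1 (ENSMUSG00000031765.7, chromosome 8, 94179082 to 94180327, plus strand) was the most abundant member. It stood at 318.7 TPM in replicate 2 (298.5 to 339.9, 929 counts) and 276.3 TPM in replicate 1 (258.6 to 294.8, 911 counts), a mean of 297.5 ± 30.0 TPM (SD, n = 2 technical libraries). It ranked 100 among all gene rows in replicate 2 and 110 in replicate 1. Mt2 (ENSMUSG00000031762.6, chromosome 8, 94172664 to 94173568, plus strand) reached 144.3 TPM in replicate 2 (131.1 to 158.5, 438 counts) and 77.98 TPM in replicate 1 (68.9 to 87.9, 268 counts). Its mean was 111.1 ± 46.9 TPM (SD, n = 2). The intervals of the libraries did not meet for either gene, and replicate 2 was the higher one in TPM.

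Within a library, where no scaling between libraries is needed, Mt1 was 2.21 times Mt2 in TPM in replicate 2 (95% exact binomial interval 1.97 to 2.48) and 3.54 times in replicate 1 (3.09 to 4.08). The intervals of the ratio did not meet, so the libraries of this 1 animal differed in the balance of the metallothioneins by more than counting error. Mt3, the metallothionein known from the brain, had 2 counts in each library, at 0.69 TPM in replicate 2 and 0.61 TPM in replicate 1. Mt4, known from stratified epithelia, had 0 counts in both, which allows up to 1.67 TPM in replicate 2 and 1.502 TPM in replicate 1 at 3 counts per library. Mt1 held 68.7% of the TPM of the 4 genes in replicate 2 and 77.9% in replicate 1.

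Mtf1 (ENSMUSG00000028890.9, chromosome 4, 124802104 to 124849800, plus strand), the zinc-sensing transcription factor, was among the low members. It had 60 counts and 1.88 TPM in replicate 2 (1.44 to 2.42), and 84 counts and 1.63 TPM in replicate 1 (1.30 to 2.02). The TPM was higher in the library with fewer counts, because the effective length of the gene followed the isoforms assigned in each library, 4236 bases in replicate 2 and 5907 bases in replicate 1. With the same effective length in both libraries, an alternative chosen after seeing the data, Mtf1 stood at 1.07 TPM in replicate 2 and 1.29 TPM in replicate 1. The direction of the difference in its level thus turned with the treatment of its length.

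Of the exporters, Slc30a1 (ENSMUSG00000037434.7, chromosome 1, 191906767 to 191913247, plus strand), which moves zinc out across the plasma membrane, had 104 counts in replicate 2 and 114 in replicate 1. Its level overlapped between the libraries, at 2.71 TPM in replicate 2 (2.21 to 3.28) and 2.57 TPM in replicate 1 (2.12 to 3.09), a mean of 2.64 ± 0.099 TPM (SD, n = 2). Slc30a2 (ENSMUSG00000028836.10, chromosome 4, 134343181 to 134354484, plus strand), which loads zinc into vesicles and has been placed on zymogen granules in rodents, was the lowest member. It had 14 counts and 0.63 TPM in replicate 2 (0.344 to 1.06), and 20 counts and 0.78 TPM in replicate 1 (0.476 to 1.21). It was the only member under 1 TPM in both libraries, although its intervals reached past 1 TPM. With the mitochondrial genes, their nuclear copies and the other abundant RNAs left out of TPM it stood at 1.13 TPM in replicate 2 and 1.46 TPM in replicate 1, still the lowest member. By its mean level it ranked 12336 among all gene rows.

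The importers stood above the exporters of the set. Slc39a5 (ENSMUSG00000039878.8, chromosome 10, 128395931 to 128401229, minus strand), a zinc importer that lies on the basolateral membrane of enterocytes and acinar cells in mice, stood at 61.25 TPM in replicate 2 (57.2 to 65.5, 843 counts) and 25.62 TPM in replicate 1 (23.2 to 28.2, 407 counts). The intervals were far apart, and the mean was 43.4 ± 25.2 TPM (SD, n = 2). Slc39a7 (ENSMUSG00000024327.11, chromosome 17, 34028269 to 34031682, minus strand), which releases zinc from the endoplasmic reticulum and Golgi into the cytosol, stood at 38.46 TPM in replicate 2 (35.4 to 41.7, 602.2 counts) and 33.42 TPM in replicate 1 (30.7 to 36.2, 580.4 counts). Its intervals met. Slc39a14 (ENSMUSG00000022094.11, chromosome 14, 70303469 to 70351425, minus strand), which carries zinc, iron and manganese across the plasma membrane, stood at 6.65 TPM in replicate 2 (5.65 to 7.77, 158 counts) and 5.53 TPM in replicate 1 (4.78 to 6.37, 192 counts). As for Mtf1, its TPM was higher in the library with fewer counts, and with 1 shared effective length it was 4.399 TPM in replicate 2 and 4.61 TPM in replicate 1.

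These importers belong to the LIV-1 group of the Slc39 family, which is marked by a signature in the fifth membrane segment. The 27 bases that encode it are shown, 5′ to 3′, from the GENCODE M21 transcripts, because the first codon (in capitals) sets Slc39a14 apart from the other two.
Slc39a5: CACgagctgccccacgaactgggtgac
Slc39a7: CACgaagtgcctcatgaggttggggat
Slc39a14: GAGgaattccctcatgagctgggagac
The first codon encodes histidine in Slc39a5 and Slc39a7, and glutamate in Slc39a14. Histidine made up 64 of the 476 codons of Slc39a7 (13.4%), against 23 of 535 in Slc39a5 (4.30%) and 15 of 489 in Slc39a14 (3.07%). Slc39a7 thus had the most histidine codons of the 8 members, in the transcripts read.

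**Figure D1:**
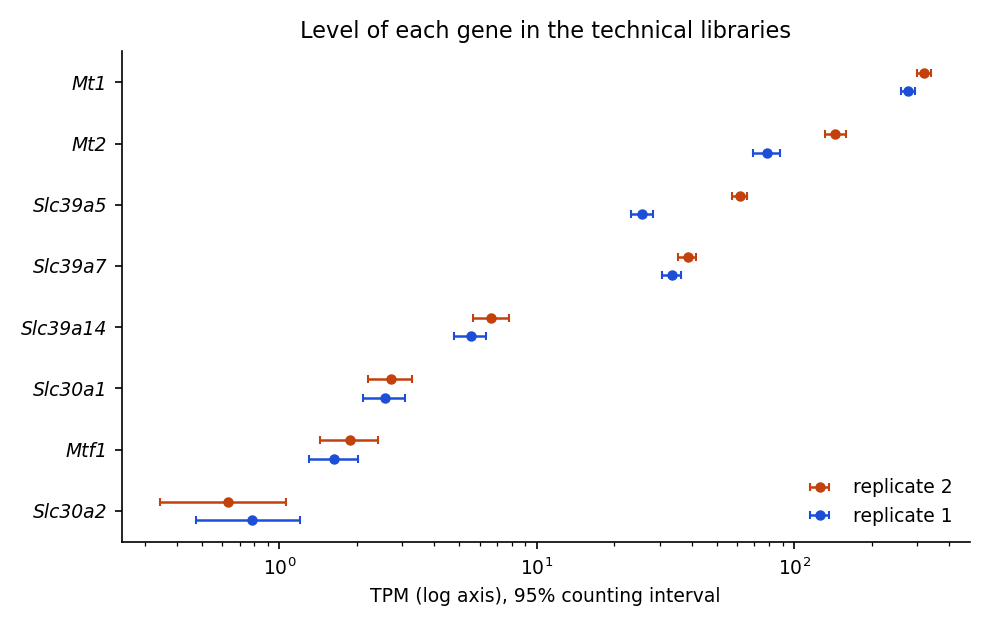
Level of each of the 8 genes in TPM on a log axis, with replicate 2 above replicate 1 and bars for the 95% counting interval. Mt1 stands highest, at 318.7 TPM in replicate 2 and 276.3 TPM in replicate 1, and Slc30a2 lowest, at 0.63 TPM in replicate 2 and 0.78 TPM in replicate 1, and the libraries lie farthest apart for Slc39a5 and Mt2.

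The order of the levels was Mt1, Mt2, then Slc39a5 and Slc39a7, then Slc39a14, Slc30a1, Mtf1 and Slc30a2. The place of Slc39a5 and Slc39a7 changed between the libraries: the TPM of Slc39a5 was 1.59 times that of Slc39a7 in replicate 2 (1.43 to 1.77) and 0.767 times in replicate 1 (0.674 to 0.872). Slc30a1 and Mtf1 kept their order, but their intervals met in replicate 2. The other neighbours kept their order in both libraries with intervals that did not meet. The TPM of Slc39a7 was 5.78 times that of Slc39a14 in replicate 2 and 6.04 times in replicate 1, and by posterior mean TPM it was 3.87 times in replicate 2 and 3.94 times in replicate 1. The size of this gap thus moved with the treatment of the isoforms of Slc39a14.

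To compare the libraries, the counts of each gene were set against the TMM-scaled totals in a two-sided exact binomial test, adjusted by the Benjamini-Hochberg method over all 12452 genes whose mean reached 10 counts. Calls needed an adjusted p under 0.05 together with a ratio, replicate 2 over replicate 1, of 1 or more in size on the log2 scale. The p-values measure counting error between these technical libraries and say nothing of conditions or animals. All 8 members were tested, 2 were called higher in replicate 2, none was called lower, and 6 were not called. Of all genes tested, 1533 were called (12.3%), 1035 of them higher in replicate 2 (8.31%) and 498 lower (4.0%). The split of the calls over all genes changed with the scaling, with 342 higher and 2603 lower by library totals, 733 higher and 875 lower by totals that leave out the mitochondrial genes with their nuclear copies and Gm42418, Lars2 and Gm26917, and 461 higher and 497 lower once a GC and length trend was removed. The median log2 ratio was 0.43 over the members and -0.01 over all genes tested, and by library totals it was -0.11 over the members and -0.55 over all genes. At 12.3% of all genes, 1 call among 8 members would be near the background, so the 2 calls are not a result about the set.

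Slc39a5 was 2.89-fold higher in replicate 2 than in replicate 1, with a log2 ratio of 1.53 (1.36 to 1.71, adjusted p = 7.57e-73, exact binomial test). Mt2 was 2.28-fold higher in replicate 2, with a log2 ratio of 1.19 (0.97 to 1.42, adjusted p = 1.487e-25, exact binomial test). Both calls ended by library totals, with log2 ratios of 0.9962 for Slc39a5 and 0.65 for Mt2, and after the GC and length trend, with 0.74 for Slc39a5 and 0.75 for Mt2. In these settings the size threshold ended the calls. By the exact binomial test the adjusted p was 1.672e-30 for Slc39a5 and 2.103e-08 for Mt2 by library totals. After the trend it was 1.971e-16 for Slc39a5 and 4.055e-10 for Mt2. Both calls also ended in edgeR's exact test with an assumed dispersion of 0.1, where the adjusted p was 0.9312 for Slc39a5 and 1 for Mt2. With an assumed dispersion of 0.01 in edgeR's exact test both calls held, with an adjusted p of 1.93e-09 for Slc39a5 and 2.329e-05 for Mt2. The dispersion could not be estimated from these libraries. The main transcripts held 59.8% GC in Slc39a5 and 55.6% GC in Mt2, and the trend over all genes at that GC and length was 0.79 for Slc39a5 and 0.44 for Mt2.

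Mt1 and Slc39a7 had adjusted p-values under the threshold in the exact binomial test and ratios too small to be called. In edgeR's exact test with an assumed dispersion of 0.01 the adjusted p passed 0.05, at 0.08835 for Mt1 and 0.07858 for Slc39a7. The log2 ratio of Mt1 was 0.51 (0.38 to 0.64, adjusted p = 1.192e-12, exact binomial test), and it was -0.03 by library totals and -0.23 after the trend. The log2 ratio of Slc39a7 was 0.54 (0.37 to 0.70, adjusted p = 3.818e-09, exact binomial test), and it was 0.0002654 by library totals and -0.14 after the trend. The direction for Mt1 turned by library totals and after the trend, and that for Slc39a7 turned after the trend. Slc30a1 had a log2 ratio of 0.35 (-0.05 to 0.75, adjusted p = 0.1545, exact binomial test), which was -0.19 by library totals. Slc39a14 had a log2 ratio of 0.20 (-0.11 to 0.51, adjusted p = 0.3229, exact binomial test), which was -0.33 by library totals. For Mtf1 the log2 ratio was 0.00 (-0.51 to 0.49) and for Slc30a2 -0.02 (-1.13 to 1.03), each with an adjusted p of 1 in the exact binomial test. The interval of Slc30a2 ran past the size threshold in both directions, so its counts did not exclude a difference of that size.

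**Figure D2:**
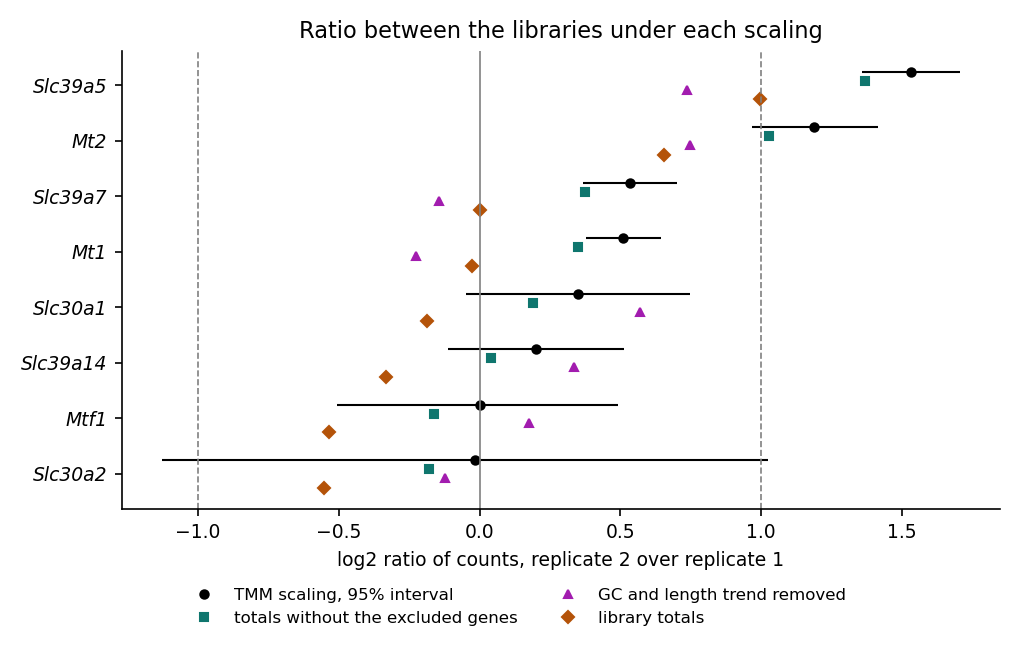
Log2 ratio of counts, replicate 2 over replicate 1, for each gene under TMM scaling (circles, with 95% exact intervals), totals without the excluded abundant genes (squares), removal of the GC and length trend (triangles) and library totals (diamonds), with dashed lines at a size of 1. Under TMM scaling Slc39a5 at 1.53 and Mt2 at 1.19 pass the line, while after the trend Slc39a5 stands at 0.74 and Mt2 at 0.75.

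Among the 14 Slc39 importers, 11 reached 1 TPM in both libraries and Slc39a12 had 0 counts in both, which allows up to 0.221 TPM in replicate 2 and 0.192 TPM in replicate 1. Slc39a5 and Slc39a7 together held 69.8% of the family's TPM in replicate 2 and 56.6% in replicate 1. Slc39a5 was first and Slc39a7 second in replicate 2, and the reverse held in replicate 1. Slc39a14 ranked 5 in both libraries, with 4.66% of the family's TPM in replicate 2 and 5.30% in replicate 1. By the mean TPM of the libraries the 4 most abundant importers outside the set were Slc39a1, Slc39a13, Slc39a9 and Slc39a8, although Slc39a11, at 4.74 TPM, was above Slc39a9 and Slc39a8 in replicate 2. In replicate 2 Slc39a1 stood at 6.96 TPM, Slc39a13 at 9.74, Slc39a9 at 4.42 and Slc39a8 at 3.31 TPM. In replicate 1 Slc39a1 stood at 12.22 TPM, Slc39a13 at 8.73, Slc39a9 at 4.38 and Slc39a8 at 5.13 TPM. Slc39a14 lay within this range.

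Of the 12 importers tested, 4 were called higher in replicate 2 and none lower, with a median log2 ratio of 0.33, beside 8.31% of all genes called higher. Those called were Slc39a5, Slc39a3, Slc39a11 and Slc39a4. By library totals 1 importer was called higher (Slc39a4) and 2 lower (Slc39a1 and Slc39a6), and the median was -0.21. Over all 12452 genes tested, that scaling called 342 higher and 2603 lower. After the GC and length trend 2 importers were called higher, Slc39a4 and Slc39a11, and none lower, beside 461 higher and 497 lower of 12324 genes. Slc39a3 had 72 counts in replicate 2 and 47 in replicate 1, a log2 ratio of 1.09. Its levels were close, at 2.68 TPM in replicate 2 and 2.5 TPM in replicate 1, as its effective length was 3564 bases in replicate 2 and 2155 bases in replicate 1. Slc39a11 had 90 counts in replicate 2 and 46 in replicate 1, a log2 ratio of 1.44. Slc39a4 had 20 counts in replicate 2 and 3 in replicate 1, a log2 ratio of 3.03 (1.47 to 5.61). Slc39a4 is the intestinal importer whose human counterpart is lost in acrodermatitis enteropathica, and its 3 counts in replicate 1 leave its ratio wide.

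Among the 10 Slc30 exporters, 7 reached 1 TPM in both libraries, and Slc30a3 and Slc30a10 had 0 counts in both. Slc30a8, which loads zinc into insulin granules of beta cells, led the family at 18.55 TPM in replicate 2 (254 counts) and 19.05 TPM in replicate 1 (301 counts), with 48.9% of the family's TPM in replicate 2 and 43.6% in replicate 1. Its TPM was 29.4 times that of Slc30a2 in replicate 2 (17.2 to 54.6) and 24.4 times in replicate 1 (15.5 to 40.6). Slc30a2 ranked 8 of 10 in the family in both libraries, last of those with a count. Slc30a1 ranked 5 in replicate 2 and 7 in replicate 1. Slc30a5, which supplies zinc to enzymes of the secretory pathway, followed Slc30a8 at 4.48 TPM in replicate 2 and 7.33 TPM in replicate 1. Slc30a9 stood at 4.09 TPM in replicate 2 and 5.22 TPM in replicate 1, and Slc30a6 at 3.11 TPM in replicate 2 and 2.64 TPM in replicate 1. Of the 8 exporters tested, none was called in either direction by the exact binomial test, beside 12.3% of all genes called. Their median log2 ratio was 0.11, which was -0.43 by library totals.

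**Figure D3:**
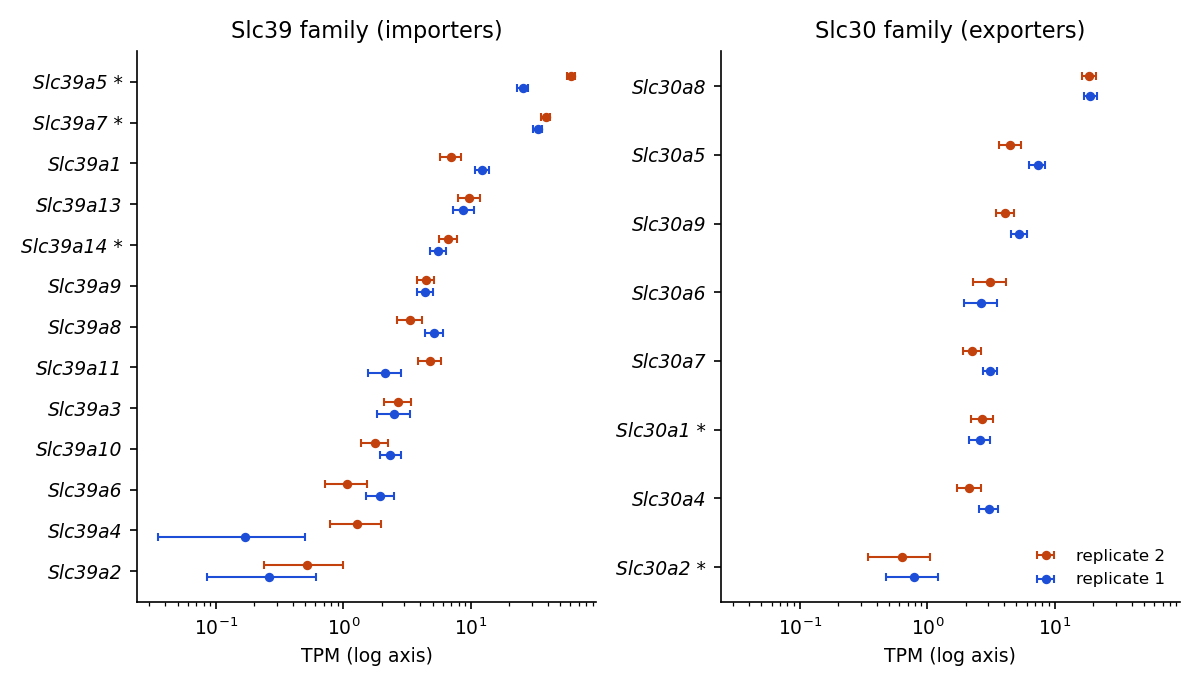
Levels of the Slc39 importers (left, 13 genes with counts in both libraries) and the Slc30 exporters (right, 8 genes) in TPM on a log axis, replicate 2 above replicate 1, with 95% counting intervals and a star on the members of the set. Slc39a5 and Slc39a7 stand above the other importers, and Slc30a8 stands above Slc30a1 and Slc30a2.

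The other genes of zinc and copper handling were read from lists of known roles. Of the 10 copper and zinc genes, 9 were tested, 3 were called higher in replicate 2 and 1 lower, beside 8.31% of all genes called higher and 4.0% called lower, with a median log2 ratio of -0.26. By library totals Atox1 was the 1 gene called higher, and 2 were called lower, Slc31a1 and Tmem163. Of all 12452 genes tested, 342 were called higher and 2603 lower by library totals. The copper chaperones Atox1, Ccs and Cox17 were higher in replicate 2, and Tmem163, a zinc transporter, was lower. Atox1 stood at 30.3 TPM in replicate 2 and 8.77 TPM in replicate 1, a log2 ratio of 2.05 of the counts. For Ccs the values were 7.34 TPM in replicate 2 and 3.71 TPM in replicate 1 (log2 ratio 1.26), and for Cox17 32.8 TPM in replicate 2 and 13.1 TPM in replicate 1 (1.06). Tmem163 stood at 1.42 TPM in replicate 2 and 2.66 TPM in replicate 1 (-1.10). Sod1, the copper and zinc superoxide dismutase, was the most abundant of the list at 68.1 TPM in replicate 2 and 52.1 TPM in replicate 1, and was not called. Slc31a2, a copper transporter, stood at 7.25 TPM in replicate 2 and 10.8 TPM in replicate 1.

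The zinc carboxypeptidases Cpa1 and Cpb1 stood far above every zinc transporter of the Slc30 and Slc39 lists: Cpa1 had 12130 TPM in replicate 2 and 17943 TPM in replicate 1, and Cpb1 had 5082 TPM in replicate 2 and 6790 TPM in replicate 1. Both stayed under the size threshold.

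Glucocorticoids and cytokines are known inducers of Mt1 and Mt2 beside metals, so genes that mark these signals were read as well. The 6 glucocorticoid-induced genes all reached 1 TPM, and none was called by the exact binomial test, beside 12.3% of all genes called. Their median log2 ratio was 0.30, which was -0.24 by library totals. In replicate 2 Sgk1 stood at 22.5 TPM, Tsc22d3 at 20.5, Per1 at 5.97 and Fkbp5 at 4.77 TPM. In replicate 1 Sgk1 stood at 27.6 TPM, Tsc22d3 at 13.9, Per1 at 5.35 and Fkbp5 at 3.66 TPM. Of the 6 acute phase and cytokine-induced genes 3 were tested, and 1 was called higher, beside 8.31% of all genes. This was Hp (haptoglobin), with 67 counts in replicate 2 and 26 in replicate 1 (log2 ratio 1.83). The levels of Hp were 7.47 TPM in replicate 2 and 2.52 TPM in replicate 1. In replicate 2 Lcn2 stood at 2.62 TPM, Socs3 at 2.32 and Saa3 at 2.11 TPM. In replicate 1 Lcn2 stood at 3.05 TPM, Socs3 at 1.63 and Saa3 at 1.24 TPM, and Il6 had 0 counts in both libraries.

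Mt1 and Mt2 had 1 transcript each in the deposited tables, whereas the other members had 2 to 13. Slc39a5 divided almost evenly between 2 transcripts, ENSMUST00000042666 with 52.4% of its TPM in replicate 2 and 50.5% in replicate 1, and ENSMUST00000167859 with the rest. In GENCODE M21 they differ at the first exons: ENSMUST00000042666 starts with a 60-base exon of its own, and ENSMUST00000167859 starts 763 bases further into the gene with a 235-base exon. The length of ENSMUST00000042666 is 1947 bases in GENCODE M21 and 1939 in the deposited tables. The 2 transcripts share 9 identical exons there. The counts of ENSMUST00000042666 were 431.5 in replicate 2 and 200.8 in replicate 1, each with a deposited posterior SD, of 53.2 in replicate 2 and 38.96 in replicate 1. The division between the starts was thus loosely set by the reads.

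Slc39a14 is known for a pair of mutually exclusive exons in the mouse. The most counted transcript, ENSMUST00000068044, held 138.2 counts in replicate 2 and 160.4 in replicate 1. This was 87.5% of the gene's counts in replicate 2 and 83.5% in replicate 1. It carries the 170-base exon 5 at 70313601 to 70313770 of chromosome 14. ENSMUST00000022688 and ENSMUST00000152067, which carry a 170-base exon at 70315664 to 70315833 in its place, both held 0 counts in replicate 2. In replicate 1 ENSMUST00000022688 held 4.19 counts and ENSMUST00000152067 held 0. The last exon of ENSMUST00000068044 is also longer, at 3344 bases against 516 in ENSMUST00000022688, so the assignment did not rest on the exon pair alone. By TPM the share of ENSMUST00000068044 was lower, 57.7% in replicate 2 and 69.8% in replicate 1, since short transcripts with a few counts each weigh more per length.

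The same held for Mtf1. Its full-length transcript ENSMUST00000030723, of 7631 bases, held 68.7% of the counts in replicate 2 and 89.5% in replicate 1, but 38.8% of the TPM in replicate 2 and 70.6% in replicate 1. A 781-base retained intron transcript, ENSMUST00000147452, held 47.3% of the TPM in replicate 2 from 4.2 counts, and 22.7% in replicate 1 from 2 counts.

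For Slc39a7 the protein-coding transcript ENSMUST00000169397 held 47.5% of TPM in replicate 2 and 71.6% in replicate 1. A second protein-coding transcript, ENSMUST00000025186, held 150 counts in replicate 2 and 0 in replicate 1, and the retained intron transcript ENSMUST00000170491 held 183.2 counts in replicate 2 and 167.9 in replicate 1. In GENCODE M21 the 2 protein-coding transcripts differ in the first exon and in the length of the last exon. There ENSMUST00000025186 keeps the sequence that ENSMUST00000169397 splices out between its first exons. ENSMUST00000169397 has 1550 bases in GENCODE M21 and 2107 in the deposited tables, which rest on GENCODE M4. The exons of the counted models were thus not all those described here.

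Slc30a1 and Slc30a2 had all counts on 1 transcript each. For Slc30a2 this rests on 14 counts in replicate 2 and 20 in replicate 1, and the posterior mean TPM gave the same transcript 33.7% in replicate 2 and 40.8% in replicate 1. A second transcript with another first exon, ENSMUST00000105874, took 36.1% in replicate 2 and 32.7% in replicate 1 by that measure, so the isoform of Slc30a2 was not settled at this depth.

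**Figure D4:**
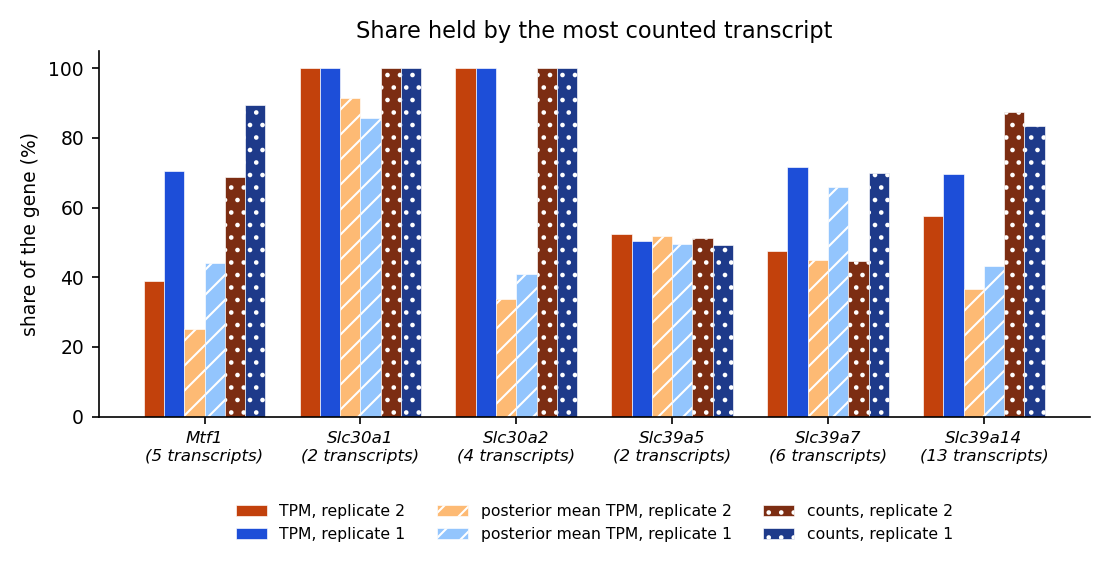
Share of the gene, in percent, held by the transcript with the most counts over both libraries, by TPM, by posterior mean TPM and by counts, with replicate 2 left of replicate 1 in each pair, for the 6 members with more than 1 transcript. The shares of Slc39a5 stay near 50% by every measure, while for Slc30a2 the posterior mean TPM gives 33.7% in replicate 2 and 40.8% in replicate 1.

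Other annotated genes share exon sequence with some members, and the labels and file headers do not state whether the counting used strand. Mt2 shares 432 exonic bases with Gm45774 on the opposite strand, which matched no row of the tables. Mtf1 shares 721 bases with 1110065P20Rik on the opposite strand (46 counts in replicate 2 and 30 in replicate 1), and Slc30a1 shares 468 bases with 1700034H15Rik on the opposite strand (9 counts in replicate 2 and 32 in replicate 1). Slc39a7 shares 2084 bases with Gm20427 on its own strand, which took 100.8 counts in replicate 2 and 45.9 in replicate 1, and the division of reads between them was estimated. The deposited posterior SD of the Slc39a7 count was 17.6 in replicate 2 and 9.52 in replicate 1.

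The promoters of Mt1, Mt2 and Slc30a1 are shown because these are the genes through which MTF1 is best known to answer zinc. They run from 250 bases before to 50 bases after the start in the RefSeq table of GRCm38.p6 (300 bases), on the plus strand, with the metal response element core TGCACNC or TGCGCNC, on either strand, in capitals. The regions are chr8:94178839-94179138 for Mt1, chr8:94172368-94172667 for Mt2 and chr1:191906531-191906830 for Slc30a1.
Mt1: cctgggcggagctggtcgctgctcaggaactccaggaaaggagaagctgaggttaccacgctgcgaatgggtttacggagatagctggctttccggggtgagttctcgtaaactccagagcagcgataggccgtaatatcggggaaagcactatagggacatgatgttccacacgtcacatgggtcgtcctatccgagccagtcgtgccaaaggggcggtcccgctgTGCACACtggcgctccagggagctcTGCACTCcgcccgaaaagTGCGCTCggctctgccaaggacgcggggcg
Mt2: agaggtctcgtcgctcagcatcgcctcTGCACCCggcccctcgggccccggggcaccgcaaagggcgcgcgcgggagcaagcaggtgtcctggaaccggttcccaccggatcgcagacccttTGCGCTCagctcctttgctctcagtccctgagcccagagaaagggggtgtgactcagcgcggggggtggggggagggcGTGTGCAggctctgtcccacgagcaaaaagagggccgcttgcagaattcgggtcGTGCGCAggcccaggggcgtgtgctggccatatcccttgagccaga
Slc30a1: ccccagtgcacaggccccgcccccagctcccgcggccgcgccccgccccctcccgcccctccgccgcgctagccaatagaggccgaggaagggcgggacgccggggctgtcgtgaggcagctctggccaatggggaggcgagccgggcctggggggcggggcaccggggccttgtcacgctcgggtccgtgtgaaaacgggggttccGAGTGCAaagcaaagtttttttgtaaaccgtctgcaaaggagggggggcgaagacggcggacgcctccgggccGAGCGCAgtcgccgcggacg
Positions of a core count bases from the start to the first base of the core as printed. Mt1 holds 3 cores, at -23, 3 and 21, all on the strand of the gene. Mt2 holds 4, at -223 and -128 on the strand of the gene and at -50 and 5 on the other. Slc30a1 holds 2, at -43 and 31, both on the other strand.

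Of the 7 members in the promoter table, 5 held at least 1 core. Beside the genes shown, Slc30a2 held 2, at -214 and -200, and Slc39a5 held 1 at -129 before its upstream start and none at its downstream start. The letters of the core were in neither the Mtf1 nor the Slc39a7 window. No matches overlapped. Of the 32851 promoters in the table, 25.7% held at least 1 core, 7.11% at least 2, 1.97% at least 3 and 0.518% at least 4. A match is a run of letters and not a shown site. The window depends on the start used, as other annotated Mt1 transcripts start 122 and 152 bases further downstream. In GENCODE M21 the Mt2 transcript ENSMUST00000034214 starts 46 bases downstream of the start in the table. That model has 511 bases, against 556 for the same transcript as counted on GENCODE M4. The start of the counted model was thus not settled.

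**Figure D5:**
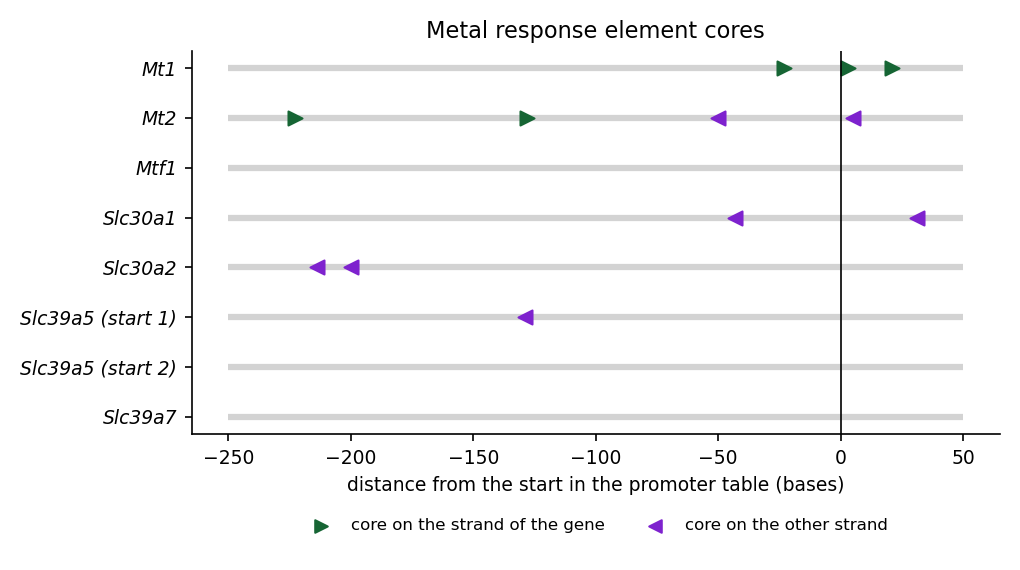
Positions of the metal response element cores (arrowheads, pointing right on the strand of the gene and left on the other strand) in the promoters of 7 members, by distance in bases from the start in the promoter table, with both starts of Slc39a5. Mt2 holds 4 cores and Mt1 holds 3, and the windows of Mtf1 and Slc39a7 hold none.

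Read beside the levels, the members with 3 or more cores, Mt1 and Mt2, were the 2 most abundant, while Slc30a1 and Slc30a2, with 2 cores each, were at 2.64 ± 0.099 TPM and 0.705 ± 0.106 TPM (SD, n = 2), and Slc39a7, with none, was at 35.9 ± 3.56 TPM. Slc39a5, with 1 core before its upstream start, was at 43.4 ± 25.2 TPM, and Mtf1, with none, at 1.755 ± 0.177 TPM (SD, n = 2). In these windows, which depend on the start used, promoter cores and levels therefore had no common order over the 7 members.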

How the data were processed

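Per the labels' protocols, a lipid tissue kit was used to extract RNA from the pancreas of 1 mouse, and 2 technical replicate libraries of polyadenylated RNA were made. Per the deposited README files, values rest on mm10 and GENCODE M4, with an aligner and quantifier not given in the sources used here. Expected counts per gene and transcript stand in the tables, per the file headers, with their effective length and posterior SD (entered as a score), TPM, posterior mean TPM, FPKM and, for transcripts, the percent of each isoform. The authors' TPM divides counts by effective length and has the same sum in each library. The deposited FPKM served as an alternative level, and the authors' score of posterior SD only to describe counts. The deposited percent of isoforms was not used, and shares were recomputed from transcript TPM.

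Symbols, positions, exons and coding sequences came from GENCODE M21 (GRCm38), which matched 42462 of 43346 gene rows. The 97 spike-in and 26248 numbered rows were left out. Promoters came from RefSeq (GRCm38.p6), whose table held 7 members and not Slc39a14. Expected counts were rounded and library totals scaled with TMM factors (edgeR 4.0.16, R 4.3.3). A quasi-likelihood test has no residual degrees of freedom here, so two-sided exact binomial tests were made on genes whose mean reached 10 counts, with Benjamini-Hochberg adjustment, 0.5 added for log2 ratios, and thresholds of 0.05 on the adjusted p and 1 on the size of the log2 ratio. Ratio intervals are exact (Clopper-Pearson, 95%), and 0 counts were bounded at 3. The GC and length trend was fitted with mgcv 1.9.3. Totals without abundant genes left out 7 nuclear copies of mitochondrial genes. DESeq2 1.42.0 gave alternative size factors. The script was tested on simulated counts. Other tools were Biopython 1.88, matplotlib 3.10.9, numpy 2.4.6, pandas 2.3.3 and scipy 1.17.1 in Python 3.11.15.

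The members and gene lists were chosen with earlier results of these data known. All 8 members were named in every result, with the 4 most abundant other genes of each list, every called gene of a list, Mt3, Mt4 and Slc30a8, except 1 listed gene that is not reported here. No gene was named for a pattern like that of a member, because 2 technical libraries of 1 animal hold no pattern across samples. No columns were left without a sample.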

Additional observations from a re-analysis of the deposited data

How the results depend on the processing

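The number of genes called between the libraries was 1533, and it was 2945 by library totals, 649 at a mean of at least 50 counts, 45 with edgeR's exact test at an assumed dispersion of 0.1 and 958 after the GC and length trend. The number of members called was 2, and 0 by library totals, at the dispersion of 0.1 and after the trend. With edgeR's exact test at an assumed dispersion of 0.01, 1227 genes and 2 members were called. By library totals the log2 ratio reversed to -0.0252 for Mt1, -0.54 for Mtf1, -0.19 for Slc30a1 and -0.33 for Slc39a14, and Mt2 at 0.65 and Slc39a5 at 0.9962 were no longer called. After the trend it reversed to -0.23 for Mt1 and -0.14 for Slc39a7, and Mt2 at 0.75 and Slc39a5 at 0.74 were no longer called. At the dispersion of 0.1 the log2 ratios stayed 1.19 for Mt2 and 1.53 for Slc39a5, without a call. Mtf1, at 0.00, took the other sign with upper quartile factors (-0.0270), totals without the abundant genes (-0.16), posterior mean counts (-0.003303) and 0.1 added (-0.002170). The cause of these changes was not tested.

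Leaving the mitochondrial genes with their nuclear copies and Gm42418, Lars2 and Gm26917 out of TPM raised the mean levels to 543.3 for Mt1, 201.9 for Mt2, 3.21 for Mtf1, 4.83 for Slc30a1, 1.29 for Slc30a2, 78.7 for Slc39a5, 65.6 for Slc39a7 and 11.1 for Slc39a14, since fewer genes then share the fixed total. Posterior mean TPM gave 2.38 for Mtf1, 0.92 for Slc30a2 and 8.83 for Slc39a14, and 1 shared effective length gave 1.18 for Mtf1 and 4.50 for Slc39a14. The main isoform share by posterior mean TPM was 88.7% for Slc30a1, 37.3% for Slc30a2 and 39.9% for Slc39a14. The Mt1 to Mt2 ratio stayed within counting error of 2.21 in replicate 2 and 3.54 in replicate 1 by posterior mean TPM and by counts. The wider core TGCNCNC was held by 7 members and by 51.0% of all promoters. No paired analysis was possible because the libraries form 1 group. Depth limits Slc30a2, with 14 counts in replicate 2 and 20 in replicate 1, and Mtf1, with 60 in replicate 2 and 84 in replicate 1.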
